A study of Mus musculus with 2 samples.

Results

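Osteoclasts are formed from blood-borne precursors under the control of a few secreted or membrane-bound cytokines, and several of the same proteins keep blood stem cells and mast cells alive. 8 genes that encode such cytokines, or a decoy receptor for one, were followed by symbol among the 31253 features of 2 single-cell libraries: *Tnfsf11*, *Tnfrsf11b*, *Csf1*, *Il34*, *Kitl*, *Il6*, *Lif* and *Il33*. They were taken as a list of names with these roles, set with earlier results of these data known, and all 8 were present in the count matrices. The libraries held periosteal cells from the femurs and tibias of 8 week old mice, which had been freed with collagenase and dispase, sorted as Prx1 positive and, after thawing, captured with BD Rhapsody. The control library came from Prx1 Cre; Ai9/+ mice and the other from Prx1 Cre; Ai9/+; Piezo1 fl/fl mice, in which the mechanosensitive channel *Piezo1* carries 2 floxed alleles. Both genotypes therefore share Prx1 Cre, which acts in limb mesenchyme, and the Ai9 reporter of Cre activity. Endothelial and blood cells are not targets of this Cre. Each genotype was represented by 1 library, so that genotype and library cannot be told apart, no test between them was possible, and every interval below is an exact 95% interval of counting error within a library.

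RANKL, the product of *Tnfsf11*, binds RANK on osteoclast precursors and is required for their differentiation, whereas osteoprotegerin, the product of *Tnfrsf11b*, is a secreted decoy receptor that captures RANKL. CSF1 and IL-34 are separate ligands of one receptor, CSF1R, which precursors and macrophages need for survival. Stem cell factor, from *Kitl*, activates KIT on blood stem cells and mast cells; IL-6 and LIF signal through the shared subunit gp130, and IL-33 is an alarmin read by ST2.

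After filtering, 4418 control and 5084 Piezo1 fl/fl cells were retained, with median depths of 4812.5 and 4593 UMIs (unique molecular identifiers, each counting 1 captured transcript). A total of 50 cell barcodes occurred in both libraries, 0.817% of the control and 0.669% of the Piezo1 fl/fl barcodes. Cells with the same barcode had a median correlation of 0.388, against 0.379 for unmatched pairs of these cells. Clusters were built without the 8 genes and named from marker genes, giving 10 control classes and 11 Piezo1 fl/fl classes. In the control these were fibroblast-like (1635 cells), SSPC-2-like (732, a *Tnn* and *Postn* rich skeletal stem and progenitor class), macrophage-like (416), pericyte-like (296), tendon-like (211), endothelial-like (172), mature osteoblast-like (61), lining-like (55) and perineurial-like cells (33), besides a cluster of 807 cells. This last cluster, led by *Chad* in both libraries, carried markers both of SSPC-1 cells and of tendon and is called the *Chad*-led cluster. The Piezo1 fl/fl library held fibroblast-like (1836), macrophage-like (434), tendon-like (407), SSPC-2-like (388), pericyte-like (363), endothelial-like (141), lining-like (124), neutrophil-like (88) and chondrocyte-like cells (27), the *Chad*-led cluster (1050) and a *Gdf10*-led cluster (226). Thus 8 classes were shared, the mature osteoblast-like and perineurial-like classes occurred as clusters only in the control, and the neutrophil-like, chondrocyte-like and *Gdf10*-led ones as clusters of their own only in the Piezo1 fl/fl library.

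Classes outside limb mesenchyme were also present among the sorted cells. *Prrx1*, the gene whose regulatory sequence drives the Cre, reached 1816 and 1256 CPM (UMIs of the gene per 1000000 UMIs of the class) in the *Chad*-led cluster of the control and Piezo1 fl/fl libraries. In endothelial-like cells it stood at 53.1 and 71.4 CPM, and in macrophage-like cells at 77.8 and 39.5 CPM. *Piezo1* itself gave 132 UMIs (5.18 CPM, 4.33 to 6.14) in the control and 69 (2.41 CPM, 1.88 to 3.06) in the Piezo1 fl/fl library. Endothelial-like cells had its highest level in each, 28.1 and 17.4 CPM, and SSPC-2-like cells had 6.29 and 1.58 CPM. Because the 3′ tag of a transcript may lie outside the deleted part, these counts do not check the deletion.

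*Tnfsf11* was concentrated in SSPC-2-like cells in both libraries, which held 88.9% of its UMIs among the control classes. In the control, *Tnfsf11* was measured at 62.5 CPM (55.9 to 69.7) in SSPC-2-like cells, 27.2 (15.2 to 44.9) in mature osteoblast-like cells, 4.20 (0.509 to 15.2) in lining-like cells, 2.58 in the *Chad*-led cluster, 1.60 in tendon-like cells and 1.08 in fibroblast-like cells, and no UMI in endothelial-like cells, macrophage-like cells, pericyte-like cells or perineurial-like cells. The step from SSPC-2-like to mature osteoblast-like cells was 2.30-fold (1.37 to 4.15), and the next, to lining-like cells, 6.48-fold (1.51 to 58.4). Lower neighbours in this order did not differ beyond counting error. In the Piezo1 fl/fl library it was measured at 104 CPM (91.4 to 117) in SSPC-2-like cells, 16.2 (4.42 to 41.6) in chondrocyte-like cells, 3.80 (1.03 to 9.72) in lining-like cells, 3.48 in endothelial-like cells, 3.45 in the *Chad*-led cluster, 1.79 in tendon-like cells, 1.43 in fibroblast-like cells, 1.22 in pericyte-like cells, 0.666 in the *Gdf10*-led cluster and 0.449 in macrophage-like cells, and no UMI in neutrophil-like cells. Here SSPC-2-like cells exceeded chondrocyte-like cells 6.38-fold (2.46 to 23.6), and no later step was beyond counting error. The 4 chondrocyte-like UMIs, however, all lay in 1 of 27 cells, and 11 of the 15 control mature osteoblast-like UMIs lay in 5 cells, so the second level of either library is uncertain beyond its interval.

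A *Tnfsf11* UMI was seen in 25.4% of control SSPC-2-like cells at a median depth of 5986 UMIs, and in 0 of 416 macrophage-like cells at 3765.5 UMIs, a class that should lack it. The Piezo1 fl/fl shares were 32.2% (5400 UMIs) and 0.230% (4033.5 UMIs). After every cell was thinned to 2500 UMIs, leaving out 29 control and 23 Piezo1 fl/fl SSPC-2-like cells below that depth, the shares in SSPC-2-like cells were 11.9% and 19.5%. The thinned shares in macrophage-like cells were 0% and 0.280%, with 96 and 77 cells left out. The detection of RANKL transcripts in SSPC-2-like cells was thus not matched in this blood class. Free RNA itself was not measured.

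*Tnfrsf11b*, by contrast, was highest outside the SSPC-2-like class. Control levels were 189 CPM (154 to 229) in mature osteoblast-like cells, 93.7 (77.5 to 112) in tendon-like cells, 47.9 (43.6 to 52.6) in fibroblast-like cells, 30.04 in the *Chad*-led cluster, 14.7 in lining-like cells, 7.05 in SSPC-2-like cells, 6.90 in pericyte-like cells, 5.82 in perineurial-like cells, 1.56 in endothelial-like cells and 1.06 in macrophage-like cells. The first 4 classes were separated by steps of 2.01-fold (1.53 to 2.65), 1.96-fold (1.58 to 2.40) and 1.60-fold (1.32 to 1.94), and below the *Chad*-led cluster neighbours did not differ beyond counting error. The lead of mature osteoblast-like cells turned with the clustering: its log2 ratio to the next class, 1.01 as reported, was -0.53 with all variable features and -0.93 with each cell assigned by its markers. Of the 117 tendon-like UMIs, however, 48 lay in 1 cell and 69 in 5 cells, as did 57 of the 104 mature osteoblast-like and 155 of the 446 fibroblast-like UMIs. Without the 5 highest cells of each class, here and below a choice made after seeing the data, the levels were 95.5 CPM in mature osteoblast-like, 39.6 in tendon-like and 31.5 in fibroblast-like cells, in the same order. Levels in the Piezo1 fl/fl library were 962 CPM (843 to 1092) in chondrocyte-like cells, 86.7 (74.9 to 99.7) in tendon-like cells, 29.98 (26.9 to 33.4) in fibroblast-like cells, 23.2 in SSPC-2-like cells, 14.2 in the *Chad*-led cluster, 10.4 in pericyte-like cells, 9.33 in the *Gdf10*-led cluster, 6.64 in lining-like cells, 1.74 in endothelial-like cells and 0.898 in macrophage-like cells, and no UMI in neutrophil-like cells. Chondrocyte-like cells stood 11.1-fold (9.14 to 13.5) over tendon-like cells, which exceeded fibroblast-like cells 2.89-fold (2.41 to 3.46). Of the 237 chondrocyte-like UMIs, 197 lay in 5 of the 27 cells. Without the 5 highest cells of each class the levels were 223 CPM in chondrocyte-like, 55.3 in tendon-like and 25.1 in fibroblast-like cells, so the order held while the first fold was far smaller than its interval allows. Fibroblast-like and SSPC-2-like cells did not differ beyond counting error in that library, and SSPC-2-like cells exceeded the *Chad*-led cluster 1.63-fold (1.14 to 2.34). In the other classes below it no step between neighbours was beyond counting error.

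The shares of cells with a *Tnfrsf11b* UMI were 42.6% of mature osteoblast-like (median depth 6662 UMIs) and 0.481% of macrophage-like cells (3765.5 UMIs) in the control, and 77.8% of chondrocyte-like (8557 UMIs) and 0.461% of macrophage-like cells (4033.5 UMIs) in the Piezo1 fl/fl library. Thinned to 2500 UMIs, they were 31.6% with 4 cells left out and 34.6% with 1 left out, against 0.625% and 0.280% in macrophage-like cells. Osteoprotegerin transcripts were thus detected more often than in macrophage-like cells at equal depth as well.

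Chondrocyte-marked cells also held *Tnfrsf11b* in the control, where no cluster was chondrocyte-like. There, 17 cells carried at least 30 UMIs over the 7 chondrocyte markers, a limit chosen after the data were seen, with 23 cells within 10 UMIs of it on either side. These 17 cells had a *Tnfrsf11b* level of 575 CPM (136 UMIs). Of them, 14 lay in the fibroblast-like class, with 668 CPM (122 UMIs), and without them *Tnfrsf11b* in fibroblast-like cells was 35.5 CPM in place of 47.9. In the Piezo1 fl/fl library 4 cells outside the chondrocyte-like class passed the limit, with 9 near it, and had 121 CPM (8 UMIs). All 7 chondrocyte markers were present in control fibroblast-like cells, summing to 1386 CPM with *Col2a1* highest, against 5 of 7 at 90.6 CPM in the Piezo1 fl/fl library, where *Sox9* was highest and *Col9a1* and *Matn3* were at 0. Control macrophage-like cells also held all 7, at 1121 CPM with *Col2a1* highest. The chondrocyte-like class itself held 7 of 7 chondrocyte markers at 14008 CPM, with *Col2a1* highest. It also held 5 of 6 mature osteoblast markers at 22054 CPM, with *Ibsp* highest and *Mepe* at 0, and tendon markers at 10916 CPM. The part of each marker set in its *Tnfrsf11b* level was not tested.

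The ratio of *Tnfsf11* to *Tnfrsf11b* UMIs was compared between classes, since capture differs between genes. It was 8.86 (6.30 to 12.8) in control and 4.46 (3.35 to 6.02) in Piezo1 fl/fl SSPC-2-like cells. Each other class with at least 20 UMIs of the pair had a lower ratio: mature osteoblast-like cells had 0.144 (0.0779 to 0.249), chondrocyte-like cells 0.0169 (0.00456 to 0.0438), and tendon-like cells 0.0171 (0.00205 to 0.0631) and 0.0206 (0.00556 to 0.0536). The control and Piezo1 fl/fl *Chad*-led clusters had 0.0857 (0.0433 to 0.155) and 0.243 (0.134 to 0.417). Fibroblast-like cells had 0.0224 (0.0107 to 0.0416) and 0.0478 (0.0270 to 0.0787). The ratio in SSPC-2-like cells was therefore above that of each of these other classes in the same library. The fall of that ratio between the libraries turned with the treatment of osteoblasts: with the control mature osteoblast-like cells pooled in, a choice made after seeing the data, the control ratio was 2.43 (1.99 to 2.98), below and not above the Piezo1 fl/fl value. It also rested on few cells, since 40 of the 59 Piezo1 fl/fl *Tnfrsf11b* UMIs of the class lay in 5. Without the 5 cells with the most *Tnfrsf11b* UMIs, left out after seeing the data, the ratios were 17.2 (10.8 to 28.9) and 13.8 (8.65 to 23.3), and their intervals overlapped. The ratio without such cells was 0.319 (0.166 to 0.581) in mature osteoblast-like cells, and in chondrocyte-like cells 4 to 40 UMIs (interval 0.0260 to 0.277). It was 0.107 and 0.370 in the *Chad*-led clusters, 0.0417 and 0.0328 in tendon-like and 0.0344 and 0.0576 in fibroblast-like cells, so SSPC-2-like cells were still the highest. Because cells were left out by *Tnfrsf11b* alone, a rise of each ratio was built into this cut. The same 5 cells are also a larger part of a small class.

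Within SSPC-2-like cells thinned to 2500 UMIs, 1 of 84 control cells with a *Tnfsf11* UMI also had a *Tnfrsf11b* UMI (1.19%), against 11 of 619 without *Tnfsf11* (1.78%). For Piezo1 fl/fl cells these were 1 of 71 (1.41%) and 7 of 294 (2.38%). With 1 cell positive for both transcripts in each library, a difference was not detectable at this depth.

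**Figure D1:**
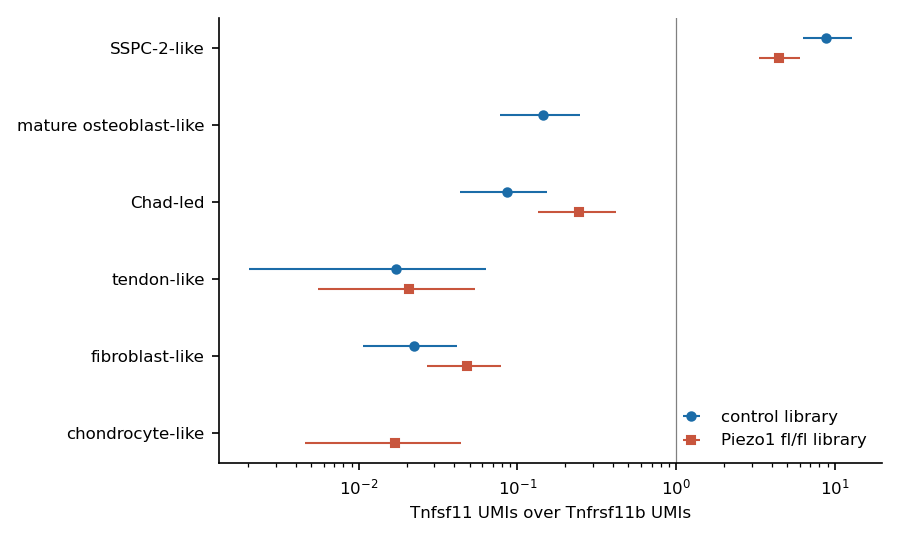
Ratio of *Tnfsf11* to *Tnfrsf11b* UMIs in each class of the control and Piezo1 fl/fl libraries, on a log scale. Bars are exact 95% intervals of counting error within 1 library. The *Chad*-led cluster carries markers of SSPC-1 and tendon cells.

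*Csf1* was spread over most stromal classes. In the control it was measured at 371 CPM (359 to 384) in fibroblast-like cells, 267 (223 to 318) in lining-like cells, 209 (147 to 289.9) in perineurial-like cells, 179.7 in mature osteoblast-like cells, 96.1 in tendon-like cells, 64.6 in the *Chad*-led cluster, 60.9 in endothelial-like cells, 55.3 in SSPC-2-like cells, 52.9 in pericyte-like cells and 29.1 in macrophage-like cells. Fibroblast-like cells exceeded lining-like cells 1.39-fold (1.16 to 1.67). Between lining-like, perineurial-like and mature osteoblast-like cells, in this order, no step was beyond counting error, and mature osteoblast-like cells exceeded tendon-like cells 1.87-fold (1.42 to 2.46). Piezo1 fl/fl cells had *Csf1* at 333 CPM (322 to 344) in fibroblast-like cells, 332 (298 to 369) in lining-like cells, 268 (242 to 295) in the *Gdf10*-led cluster, 249 in neutrophil-like cells, 184 in SSPC-2-like cells, 109.9 in tendon-like cells, 86.8 in the *Chad*-led cluster, 67.1 in pericyte-like cells, 64.4 in endothelial-like cells and 11.2 in macrophage-like cells, and no UMI in chondrocyte-like cells. Fibroblast-like and lining-like cells did not differ beyond counting error, nor did the *Gdf10*-led cluster and neutrophil-like cells. Of the 115 neutrophil-like UMIs, 74 lay in 5 cells, and without the 5 highest cells of each class that level was 91.7 CPM, below the 153 of SSPC-2-like cells. SSPC-2-like cells exceeded tendon-like cells 1.67-fold (1.43 to 1.96), whereas in the control they stood among the lowest classes. Macrophage-like cells, which carry the receptor, had the lowest control level of this ligand. The lead of fibroblast-like cells depended on the gene filter. With a wider range of genes per cell, a neutrophil-like class formed in both libraries and led *Csf1*, at 2061 CPM (270 UMIs, 72 cells) in the control and 809 CPM (992 UMIs, 521 cells) among Piezo1 fl/fl cells. Fibroblast-like cells then had 374 and 331 CPM.

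*Csf1* UMIs were found in 69.2% of control and 70.6% of Piezo1 fl/fl fibroblast-like cells, at median depths of 4816 and 5195.5 UMIs, against 6.49% and 3.92% of macrophage-like cells at 3765.5 and 4033.5. Thinned, with 145 and 157 fibroblast-like cells left out, the shares were 52.3% and 49.1%, against 5.00% and 2.24% of macrophage-like cells. This wide detection was not a matter of a few cells, since the 5 highest fibroblast-like cells held 2.52% of its control and 2.61% of its Piezo1 fl/fl UMIs.

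*Il34*, the other CSF1R ligand, had its highest level in pericyte-like cells. Control levels were 85.1 CPM (70.05 to 103) in pericyte-like cells, 69.8 (36.1 to 122) in perineurial-like cells, 26.6 (22.1 to 31.7) in the *Chad*-led cluster, 25.6 in tendon-like cells, 10.3 in fibroblast-like cells, 8.41 in lining-like cells, 7.80 in endothelial-like cells, 3.63 in mature osteoblast-like cells, 3.43 in SSPC-2-like cells and 3.18 in macrophage-like cells. Pericyte-like and perineurial-like cells did not differ beyond counting error, and perineurial-like cells exceeded the *Chad*-led cluster 2.62-fold (1.32 to 4.75), on 12 UMIs. Piezo1 fl/fl levels were 61.6 CPM (50.2 to 74.8) in pericyte-like cells, 24.99 (20.8 to 29.8) in the *Chad*-led cluster, 12.5 (8.31 to 18.1) in tendon-like cells, 12.3 in lining-like cells, 12.2 in endothelial-like cells, 11.9 in fibroblast-like cells, 6.30 in SSPC-2-like cells, 4.06 in chondrocyte-like cells, 1.35 in macrophage-like cells and 0.666 in the *Gdf10*-led cluster, and no UMI in neutrophil-like cells. Pericyte-like cells exceeded the *Chad*-led cluster 2.46-fold (1.88 to 3.23), which exceeded tendon-like cells 2.00-fold (1.32 to 3.13). The pair of CSF1R ligands thus had their highest levels in separate classes. *Il34* was led by pericyte-like cells, and *Csf1* by fibroblast-like cells or, with the wider gene filter, by neutrophil-like cells. An *Il34* UMI was present in 29.4% and 22.6% of pericyte-like cells (median depths 3745 and 3948 UMIs) and in 0.962% and 0.691% of macrophage-like cells (3765.5 and 4033.5 UMIs). Thinned shares of pericyte-like cells were 18.95% and 14.3%, with 48 and 56 cells left out, and those of macrophage-like cells were 1.25% and 0.560%. Pericyte-like shares were therefore above those of macrophage-like cells, while free RNA itself was not measured.

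*Kitl* was highest in endothelial-like and pericyte-like cells, with lower levels in other classes. In the control it reached 1097 CPM (1018 to 1181) in endothelial-like cells, 569 (529 to 612) in pericyte-like cells, 68.8 (57.5 to 81.7) in macrophage-like cells, 41.5 in SSPC-2-like cells, 37.3 in fibroblast-like cells, 17.2 in the *Chad*-led cluster, 16.8 in lining-like cells, 12.7 in mature osteoblast-like cells, 5.82 in perineurial-like cells and 2.40 in tendon-like cells. Endothelial-like cells exceeded pericyte-like cells 1.93-fold (1.74 to 2.14), pericyte-like exceeded macrophage-like cells 8.27-fold (6.85 to 10.04), and macrophage-like exceeded SSPC-2-like cells 1.66-fold (1.32 to 2.07). SSPC-2-like and fibroblast-like cells did not differ beyond counting error. Among Piezo1 fl/fl classes *Kitl* reached 775 CPM (705 to 851) in endothelial-like cells, 670.3 (631 to 711) in pericyte-like cells, 184 (163 to 207) in the *Gdf10*-led cluster, 49.4 in macrophage-like cells, 39.8 in SSPC-2-like cells, 23.1 in fibroblast-like cells, 14.2 in lining-like cells, 12.2 in chondrocyte-like cells, 10.6 in the *Chad*-led cluster, 8.65 in neutrophil-like cells and 4.47 in tendon-like cells. The order was again led by endothelial-like cells, here 1.16-fold (1.03 to 1.29) over pericyte-like cells, and the *Gdf10*-led cluster was the third.

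*Kitl* was detected in 77.9% and 71.6% of endothelial-like cells, although their median depths of 3022 and 3126 UMIs were the lowest of all classes. Tendon-like cells, at 4880 and 4524 UMIs, had shares of 1.42% and 1.72%. Thinned shares in endothelial-like cells were 76.3% and 69.1%, with 54 and 47 cells left out, against 0.535% and 0.820% in tendon-like cells, with 24 and 41 left out. Macrophage-like cells lay between, at 18.0% and 16.1% before thinning (3765.5 and 4033.5 UMIs) and 13.4% and 10.4% after it. Pericyte-like cells had 76.4% and 80.7% before thinning and 67.3% and 66.8% after it. Stem cell factor transcripts were thus present in most cells of both vascular classes.

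*Il6* had its highest summed level in pericyte-like cells, with fibroblast-like cells high as well. Control levels were 267 CPM (239.6 to 297) in pericyte-like cells, 168 (159.7 to 176) in fibroblast-like cells, 48.1 (36.7 to 61.9) in tendon-like cells, 20.3 in endothelial-like cells, 18.9 in lining-like cells, 13.2 in macrophage-like cells, 8.96 in SSPC-2-like cells and 5.79 in the *Chad*-led cluster, and no UMI in mature osteoblast-like cells or perineurial-like cells. The first steps were 1.59-fold (1.41 to 1.79) from pericyte-like to fibroblast-like and 3.49-fold (2.70 to 4.60) from fibroblast-like to tendon-like cells. Piezo1 fl/fl levels were 354 CPM (326 to 384) in pericyte-like cells, 161 (138 to 187) in lining-like cells, 128 (121 to 134) in fibroblast-like cells, 65.7 in tendon-like cells, 60.96 in endothelial-like cells, 28.4 in the *Chad*-led cluster, 25.99 in the *Gdf10*-led cluster, 24.4 in SSPC-2-like cells, 21.1 in macrophage-like cells, 15.1 in neutrophil-like cells and 4.06 in chondrocyte-like cells. Here lining-like cells followed pericyte-like cells, which were 2.20-fold (1.85 to 2.62) higher, but 149 of the 170 lining-like UMIs lay in 5 cells, and without these the level was 21.2 CPM. Unlike the *Csf1* signal, that of *Il6* came from few cells. An *Il6* UMI was found in 14.5% and 15.4% of pericyte-like cells and in 13.0% and 11.3% of fibroblast-like cells, against 2.23% and 4.48% of the *Chad*-led cluster at median depths of 5166 and 3944.5 UMIs. Thinned shares were 12.1% and 13.4% of pericyte-like, 10.7% and 8.58% of fibroblast-like, and 0.962% and 3.13% of *Chad*-led cells, of which 79 and 155 were left out. The 5 highest pericyte-like cells held 55.7% of the control and 44.9% of the Piezo1 fl/fl *Il6* UMIs of their class, so the intervals of this level, which treat UMIs as independent, are too narrow. Without the 5 highest cells of each class, the control lead passed to fibroblast-like cells, at 139 CPM against 119.9 in pericyte-like cells. The Piezo1 fl/fl lead was kept by pericyte-like cells, at 198 CPM against 103 in fibroblast-like cells, but passed to another class with each cell assigned by its markers, a log2 ratio to the next class of -0.27 in place of 1.14. Dissociation genes summed to 21534 and 26055 CPM in pericyte-like cells and to 15750.4 and 16010.3 CPM in fibroblast-like cells. Their part in the *Il6* levels was not tested.

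Few *Lif* UMIs were found in most classes. In the control it was measured at 13.8 CPM (8.99 to 20.2) in macrophage-like cells, 11.6 (1.41 to 42.02) in perineurial-like cells, 10.1 in fibroblast-like cells, 9.66 in the *Chad*-led cluster, 3.63 in mature osteoblast-like cells, 3.20 in tendon-like cells, 2.86 in SSPC-2-like cells and 2.10 in lining-like cells, and no UMI in endothelial-like cells or pericyte-like cells, and no neighbours in the first 4 classes differed beyond counting error. The macrophage-like lead rested on few cells, 5 of which held 20 of its 26 UMIs. In the Piezo1 fl/fl library it was measured at 93.3 CPM (59.2 to 140.0) in chondrocyte-like cells, 16.1 (9.40 to 25.8) in lining-like cells, 15.3 in the *Gdf10*-led cluster, 6.74 in macrophage-like cells, 6.70 in tendon-like cells, 5.89 in the *Chad*-led cluster, 4.92 in fibroblast-like cells, 1.74 in endothelial-like cells and 1.58 in SSPC-2-like cells, and no UMI in neutrophil-like cells or pericyte-like cells. The leading value rested on 23 UMIs in 3 of the 27 chondrocyte-like cells. Fibroblast-like cells with a *Lif* UMI made up 3.98% and 2.67% of the class, and 2.15% and 1.19% after thinning. Pericyte-like cells, at 3745 and 3948 UMIs, had none in either library.

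*Il33* marked fibroblast-like and tendon-like cells. Control levels were 108 CPM (90.7 to 128) in tendon-like cells, 96.3 (90.1 to 103) in fibroblast-like cells, 46.5 (20.1 to 91.7) in perineurial-like cells, 10.3 in the *Chad*-led cluster, 1.56 in endothelial-like cells, 0.762 in SSPC-2-like cells and 0.529 in macrophage-like cells, and no UMI in lining-like cells, mature osteoblast-like cells or pericyte-like cells. Tendon-like and fibroblast-like cells did not differ beyond counting error, and fibroblast-like cells exceeded perineurial-like cells 2.07-fold (1.05 to 4.81). Piezo1 fl/fl levels of *Il33* were 249 CPM (224 to 275) in the *Gdf10*-led cluster, 138 (131 to 145) in fibroblast-like cells, 100.5 (87.8 to 115) in tendon-like cells, 25.4 in the *Chad*-led cluster, 21.6 in neutrophil-like cells, 1.90 in lining-like cells, 1.80 in macrophage-like cells, 1.74 in endothelial-like cells and 0.788 in SSPC-2-like cells, and no UMI in chondrocyte-like cells or pericyte-like cells. The *Gdf10*-led cluster exceeded fibroblast-like cells 1.80-fold (1.61 to 2.02). An *Il33* UMI was found in 24.5% and 29.2% of fibroblast-like cells and in 56.2% of the *Gdf10*-led cluster (5900 UMIs), against none of 296 and 363 pericyte-like cells. Thinned shares were 16.1% and 19.3% of fibroblast-like cells and 39.8% of the *Gdf10*-led cluster, with 15 of its cells left out. The alarmin transcript thus stood apart from *Il6* and *Il34*, in that pericyte-like cells gave no UMI of it.

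**Figure D2:**
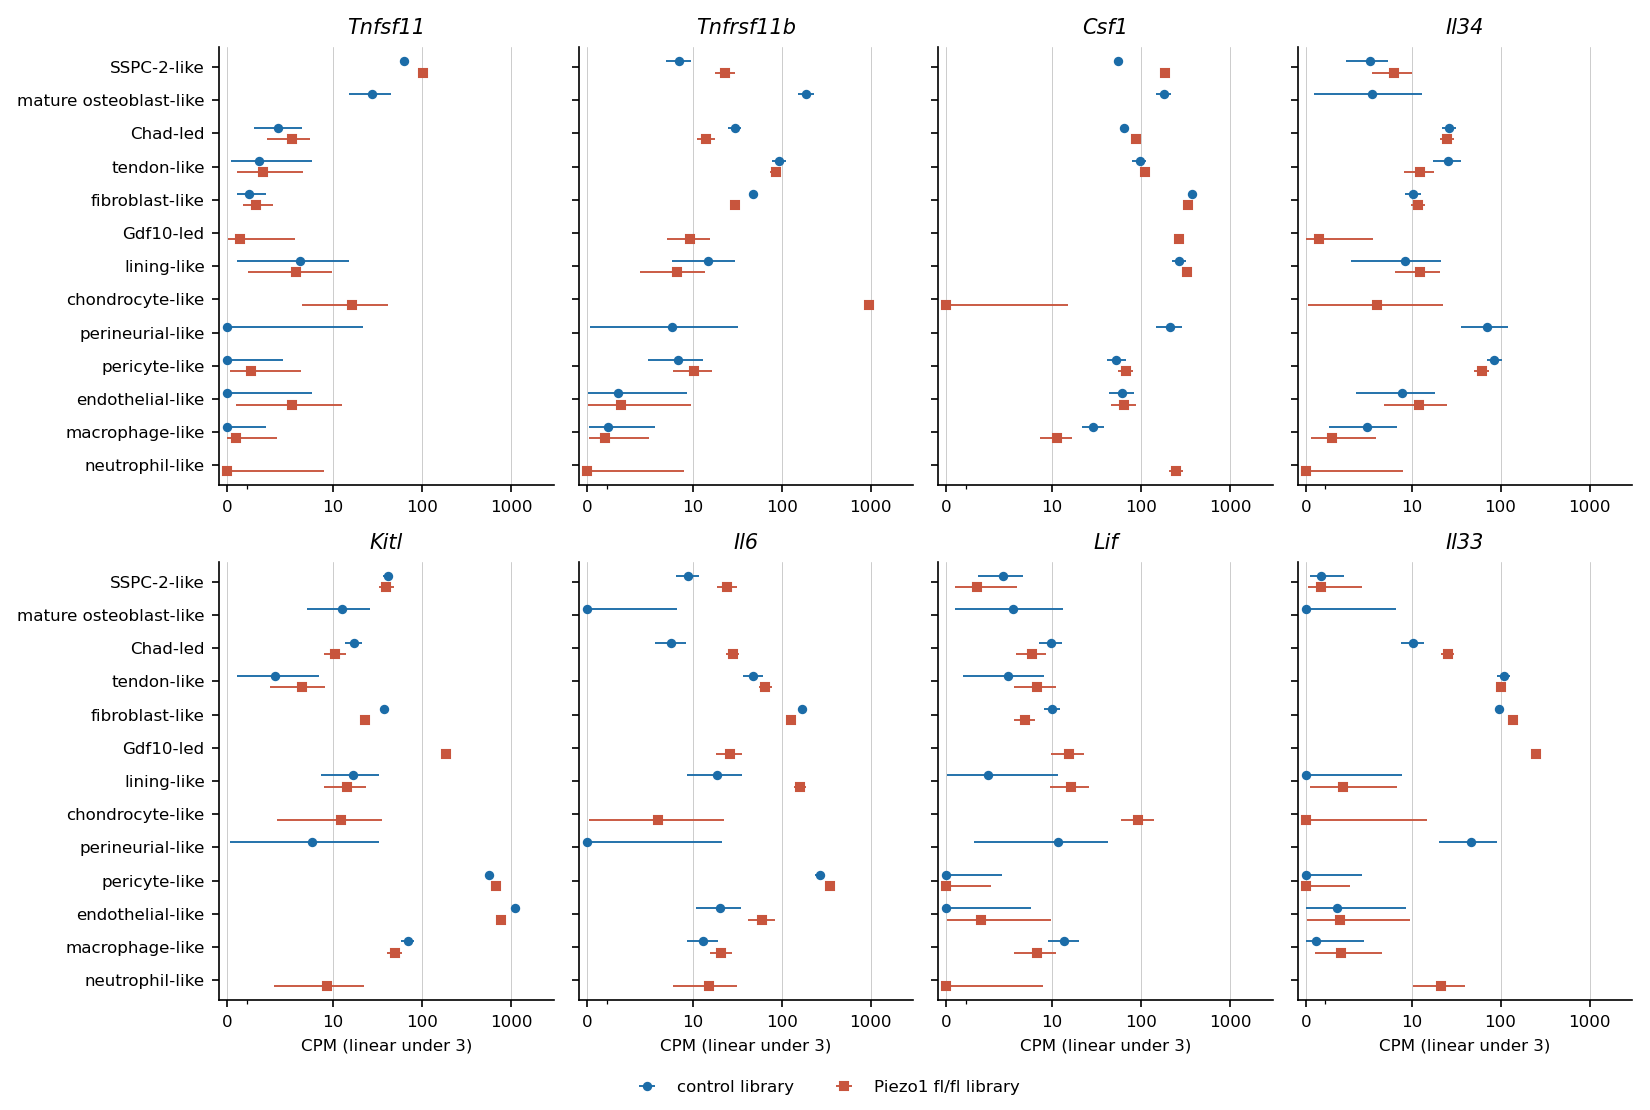
Levels of the 8 genes in each class, in CPM (UMIs per 1000000 UMIs of the class), for the control and Piezo1 fl/fl libraries. Bars are exact 95% Poisson intervals, which cover counting error within 1 library only. The *Chad*-led cluster carries markers of SSPC-1 and tendon cells.

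The fibroblast-like class was not uniform in these genes. In the control it joined a cluster led by *Pi16* (848 cells) and another of 787 cells, which had *Gdf10* among its leading genes. *Tnfrsf11b* was at 88.1 CPM in the first and 2.74 in the second, *Il6* at 208 and 123 and *Il33* at 70.7 and 125. In the Piezo1 fl/fl library it joined 4 clusters, among which a *Clec3b*-led one of 392 cells had *Tnfrsf11b* at 72.9 and *Il6* at 3.29 CPM. A cluster of 310 cells had the reverse, with *Tnfrsf11b* at 1.48 and *Il6* at 216 CPM. *Csf1* was highest in a *Pi16*-led cluster of 268 cells (508 CPM). Decoy receptor and *Il6* transcripts therefore peaked in different fibroblast-like clusters of the Piezo1 fl/fl library and in the same one in the control.

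The class with the highest level was the same in both libraries for 5 of the 8 genes, a description given without a share over all genes: *Tnfsf11*, *Csf1*, *Il34*, *Kitl* and *Il6*. For *Csf1* that class was neutrophil-like in place of fibroblast-like with the wider gene filter. For *Kitl* in the Piezo1 fl/fl library pericyte-like cells led with mitochondrial UMIs under 10%, the log2 ratio of endothelial-like cells to the next class turning from 0.21 to -0.02. For *Il6* the control lead of pericyte-like cells was lost without 5 cells, and the Piezo1 fl/fl lead with cells assigned by markers. Without the 5 highest cells of each class, the leading class also changed for *Lif* in both libraries and for *Il33* in the control. In the control, 2 of 8 were at least 2-fold higher in their leading class than in the next (*Tnfsf11* and *Tnfrsf11b*), as were 24.4% of all genes with at least 20 UMIs. In the Piezo1 fl/fl library 5 of 8 were (*Tnfsf11*, *Tnfrsf11b*, *Il34*, *Il6* and *Lif*), against 22.5% of all such genes. The control share was thus near that of all genes, and the leading chondrocyte-like class behind *Tnfrsf11b* and *Lif* in the Piezo1 fl/fl library held 27 cells.

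For each gene, the 3 others whose levels ran most alike over the 10 control classes were found among 10866 genes, by Pearson's r of log2(CPM + 10), and the same r was taken over the 11 Piezo1 fl/fl classes. For *Tnfsf11* they were *Slc35g1* (r = 0.987 and 0.886), *Gm36595* (r = 0.986 and 0.922) and *Intu* (r = 0.959 and 0.928). Those of *Tnfrsf11b* included *Dchs2* (r = 0.932 and 0.117) and *Bmp3* (r = 0.906 and 0.032). *Csf1* ran with *Ackr3* (r = 0.910 and 0.346), *Clip4* (r = 0.905 and 0.634) and *Ibtk* (r = 0.893 and 0.476), and *Il34* with *Kcne4* (r = 0.955 and 0.788), *Pfkm* (r = 0.922 and 0.875) and *Nkd1* (r = 0.918 and 0.857). The patterns of *Tnfsf11* and *Il34* thus recurred with their neighbours in the other library, while that of *Tnfrsf11b* did not recur with *Dchs2* or *Bmp3*. *Kitl* ran with *Dnajc8* (r = 0.971 and 0.695), *Hotairm1* (r = 0.961 and 0.768) and *Esam* (r = 0.954 and 0.862). *Il6* ran with *Ptgir* (r = 0.928 and 0.531), *Arhgap6* (r = 0.882 and 0.891) and *Cop1* (r = 0.866 and 0.050). For *Lif* the genes were *Zfp995* (r = 0.947 and 0.090), *Rassf2* (r = 0.946 and -0.297) and *Pcyox1* (r = 0.934 and -0.354), and for *Il33* they included *C3* (r = 0.953 and 0.728) and *Cilp* (r = 0.946 and 0.636). Each r rests on classes of 1 library, and is a description.

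Receptors for these cytokines, 11 genes in all, were led by blood and vascular classes as well as by stroma. Macrophage-like cells were highest for *Tnfrsf11a*, which encodes RANK (150.4 and 125 CPM in the control and Piezo1 fl/fl libraries), for *Csf1r* (2084 and 1919 CPM) and for *Il6ra* (325 and 274 CPM). *Kit* was at 48.4 CPM (31 UMIs) in control and 13.9 CPM (8 UMIs) in Piezo1 fl/fl endothelial-like cells. That class led for *Kit* in the control, as it did for its ligand *Kitl*, whereas neutrophil-like cells led in the other library with 23.8 CPM. *Il1rl1*, which encodes ST2, was at 30.2 CPM in control macrophage-like and 43.7 CPM in Piezo1 fl/fl lining-like cells. Among 12 osteoclast genes, 4 of the 8 with enough UMIs were highest in control macrophage-like cells (*Acp5*, *Atp6v0d2*, *Mmp9* and *Tcirg1*), where 19.5% of all genes were. Of 10 in the Piezo1 fl/fl library, 3 were highest in macrophage-like cells (14.4% of all genes) and 4 in neutrophil-like cells (14.4%): *Car2*, *Dcstamp*, *Mmp9* and *Ocstamp*. The neutrophil-like level rested on 7 UMIs for *Dcstamp* (15.1 CPM, 14.4 in macrophage-like cells) and 5 for *Ocstamp* (10.8 and 9.43 CPM). For *Car2* it rested on 13 UMIs (28.1 CPM, 22.6 in endothelial-like cells), and for *Mmp9* on 511 (1105 CPM, 347 in macrophage-like cells).

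Of 6 receptors of hormones and prostaglandins, mature osteoblast-like cells led 2 in the control (*Pth1r* and *Vdr*) and SSPC-2-like cells 1 (*Ptger2*, 18 UMIs). Of all genes in the control, these classes led 4.92% and 2.95%. *Esr1* was led there by the *Chad*-led cluster, *Nr3c1* by endothelial-like and *Ptger4* by macrophage-like cells. In the Piezo1 fl/fl library SSPC-2-like cells led *Vdr* alone (3.86% of all genes) and chondrocyte-like cells *Pth1r* (7.44%), and the other 4 were led outside these classes. *Pth1r* was at 528 CPM in mature osteoblast-like and 176 CPM in SSPC-2-like control cells, and at 507 and 265 CPM in chondrocyte-like and SSPC-2-like Piezo1 fl/fl cells. *Vdr* was at 309 CPM in mature osteoblast-like and 114 CPM in SSPC-2-like control cells, and at 138 CPM in Piezo1 fl/fl SSPC-2-like cells. Among 6 other genes of the IL-6 family, *Osm* was highest in macrophage-like cells in the control (86.8 CPM) and in neutrophil-like cells in the Piezo1 fl/fl library (486 CPM). *Il11* was at 252 CPM in chondrocyte-like cells, beside the leading *Lif* value. Among 10 other niche factors, *Cxcl12* was led by endothelial-like cells in both libraries (1567 and 1535 CPM), like *Kitl*, and *Ptn* by SSPC-2-like cells (1913 and 804 CPM), like *Tnfsf11*.

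Between the libraries, 42 pairs of gene and class had at least 20 UMIs over both, and 12 of these were at least 2-fold apart, 7 higher and 5 lower in the Piezo1 fl/fl library. Of all 76089 such pairs over every gene, 7.68% were. By class, the counts were 3 of 8 genes in the *Chad*-led cluster (6.85% of all genes), 3 of 6 in SSPC-2-like (6.30%), 2 of 4 in macrophage-like (8.12%), 1 of 3 in endothelial-like (8.09%), 1 of 8 in fibroblast-like (6.31%), 1 of 3 in lining-like (12.0%), 1 of 5 in tendon-like (10.8%) and 0 of 5 in pericyte-like cells (4.58%). Pairs of the related lists given further below were past 2-fold in 10.2% to 26.7%. These shares are a description, since the genes were chosen with results known, and with 1 library per genotype nothing measures how far libraries of 1 genotype differ.

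*Csf1* in SSPC-2-like cells went from 55.3 to 183.9 CPM, a log2 ratio of Piezo1 fl/fl to control of 1.73 (1.52 to 1.95), and *Il6* from 8.96 to 24.4 CPM, 1.45 (0.88 to 2.03). *Tnfrsf11b* went from 7.05 to 23.2 CPM, 1.72 (1.10 to 2.35). *Tnfsf11* was under 2-fold, from 62.5 to 103.6 CPM, 0.73 (0.49 to 0.97). *Kitl*, at 41.5 and 39.8 CPM, did not differ beyond counting error, -0.06 (-0.42 to 0.28). The class was not alike in both libraries. Of 6 mature osteoblast markers it held 5 in the control, at 3397 CPM with *Ibsp* highest and *Mepe* at 0, and all 6 in the Piezo1 fl/fl library, at 9715 CPM with *Ibsp* highest. The control mature osteoblast-like cluster held 26156 CPM. Pooling it with control SSPC-2-like cells gave *Tnfrsf11b* at 24.3 CPM against 23.2, a log2 ratio of -0.07, so that this difference turned. *Csf1* stayed apart when pooled, 67.1 against 183.9 CPM, as did *Il6*, 8.11 against 24.4 CPM, and *Tnfsf11*, 59.2 against 103.6 CPM. Pooling was not set to match the marker sums of the libraries. Control mature osteoblast-like cells alone had *Csf1* at 179.7 and *Tnfsf11* at 27.2 CPM, and no *Il6* UMI. The part of osteoblast content in these differences was not tested. Few cells held some of these UMIs: the 5 highest Piezo1 fl/fl cells had 41 of 62 *Il6* and 40 of 59 *Tnfrsf11b* UMIs. Without the 5 highest cells of each library the log2 ratios were 0.85 for *Il6*, 1.07 for *Tnfrsf11b* and 1.67 for *Csf1*.

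*Il6* was higher in the Piezo1 fl/fl library in 5 further classes by more than its counting error. In the *Chad*-led cluster it went from 5.79 to 28.4 CPM, 2.30 (1.69 to 2.95), and 2.45 without the 5 highest cells of each library. In lining-like cells it went from 18.9 to 161 CPM, 3.09 (2.13 to 4.25), but 149 of the 170 Piezo1 fl/fl UMIs lay in 5 cells and 77 in 1, and all 9 control UMIs in 4 cells. Without the 5 highest cells no ratio could be taken, and with cells thinned to 2500 UMIs it was 1.24. The median log2 ratio of all genes in that class was 0.17. In endothelial-like cells *Il6* went from 20.3 to 61.0 CPM, 1.59 (0.63 to 2.63), with 10 of 13 and 28 of 35 UMIs in 1 cell. That log2 ratio was 0.58 with doublets kept, and past 2-fold in 11 of the 14 settings that gave a value. In pericyte-like cells it went from 267 to 354 CPM, 0.41 (0.21 to 0.60). In tendon-like cells it went from 48.1 to 65.7 CPM, 0.45 (0.01 to 0.91), with 78.3% and 56.5% of the UMIs in 5 cells. There the log2 ratio was 1.45 without those cells, and turned to -0.18 at resolution 0.2 and -0.13 at resolution 0.8. In fibroblast-like cells, in contrast, it was lower, -0.40 (-0.50 to -0.29). No single direction of *Il6* therefore held over the classes. Dissociation genes summed to 13889 and 17296 CPM in the *Chad*-led cluster of the control and Piezo1 fl/fl libraries, and to 7713 and 11494 CPM in endothelial-like cells. The sums were 21534 and 26055 CPM in pericyte-like and 13759.5 and 14102.5 CPM in tendon-like cells. They were 14508 and 11985 CPM in lining-like and 15750 and 16010 CPM in fibroblast-like cells. Their part in the *Il6* differences was not tested.

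The endothelial-like class carried pericyte markers, 7 of 7 in each library with *Rgs5* highest, at 2023 CPM in the control and 5631 CPM in the Piezo1 fl/fl library. *Kitl* there went from 1097 to 775 CPM, -0.50 (-0.68 to -0.33). In lining-like cells the sum of lining markers was 148483 and 49434 CPM. The part of these markers in the *Il6* and *Kitl* differences was not tested.

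Elsewhere, *Il33* in the *Chad*-led cluster went from 10.3 to 25.4 CPM, 1.30 (0.81 to 1.81), and *Tnfrsf11b* from 30.04 to 14.2 CPM, -1.08 (-1.51 to -0.65). Tendon markers in that cluster summed to 13003 and 12683 CPM and fibroblast markers to 868 and 906 CPM. *Il34* in tendon-like cells went from 25.6 to 12.5 CPM, -1.04 (-1.82 to -0.26). In fibroblast-like cells *Lif* went from 10.1 to 4.92 CPM, -1.04 (-1.55 to -0.54), and in macrophage-like cells from 13.8 to 6.74 CPM, -1.03 (-2.05 to -0.06). Of the macrophage-like *Lif* UMIs, 20 of 26 and 13 of 15 lay in 5 cells, without which the levels were 3.22 and 0.921 CPM and the log2 ratio -1.81. *Csf1* in macrophage-like cells went from 29.1 to 11.2 CPM, -1.37 (-2.12 to -0.67), with 56.4% and 52.0% of its UMIs in 5 cells, and it turned to 0.14 with a wider range of genes per cell. Over the settings that gave a value, these ratios were past 2-fold in 7 of 16 for *Il34* in tendon-like cells, 7 of 16 for *Lif* in fibroblast-like cells, 10 of 15 for *Lif* and 11 of 16 for *Csf1* in macrophage-like cells. The remaining pairs were under 2-fold. Among them, and beyond counting error, were *Tnfrsf11b* -0.68 (-0.89 to -0.47), *Kitl* -0.69 (-0.93 to -0.46), *Il33* 0.52 (0.40 to 0.64) and *Csf1* -0.16 (-0.22 to -0.09) in fibroblast-like cells. The direction of *Tnfrsf11b* there was not stable: it was 0.57 at resolution 0.8, 0.17 at resolution 0.2, 0.15 with all variable features and 0.26 with each cell assigned by its markers, and -0.33 without the 5 highest cells. That of *Kitl* turned to 0.18 with doublets kept and to 0.18 with the *Gdf10*-led cluster pooled in, which was chosen after seeing the data. Cells of a cluster with *Gdf10* among its leading genes lay inside the control fibroblast-like class, whereas the *Gdf10*-led cluster was kept apart in the other library. In the *Chad*-led cluster *Kitl* -0.70 (-1.23 to -0.18) and *Csf1* 0.43 (0.21 to 0.64) were also of this kind. *Kitl* was lower in macrophage-like cells as well, -0.48 (-0.86 to -0.10), but higher in pericyte-like cells, 0.24 (0.10 to 0.37).

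**Figure D3:**
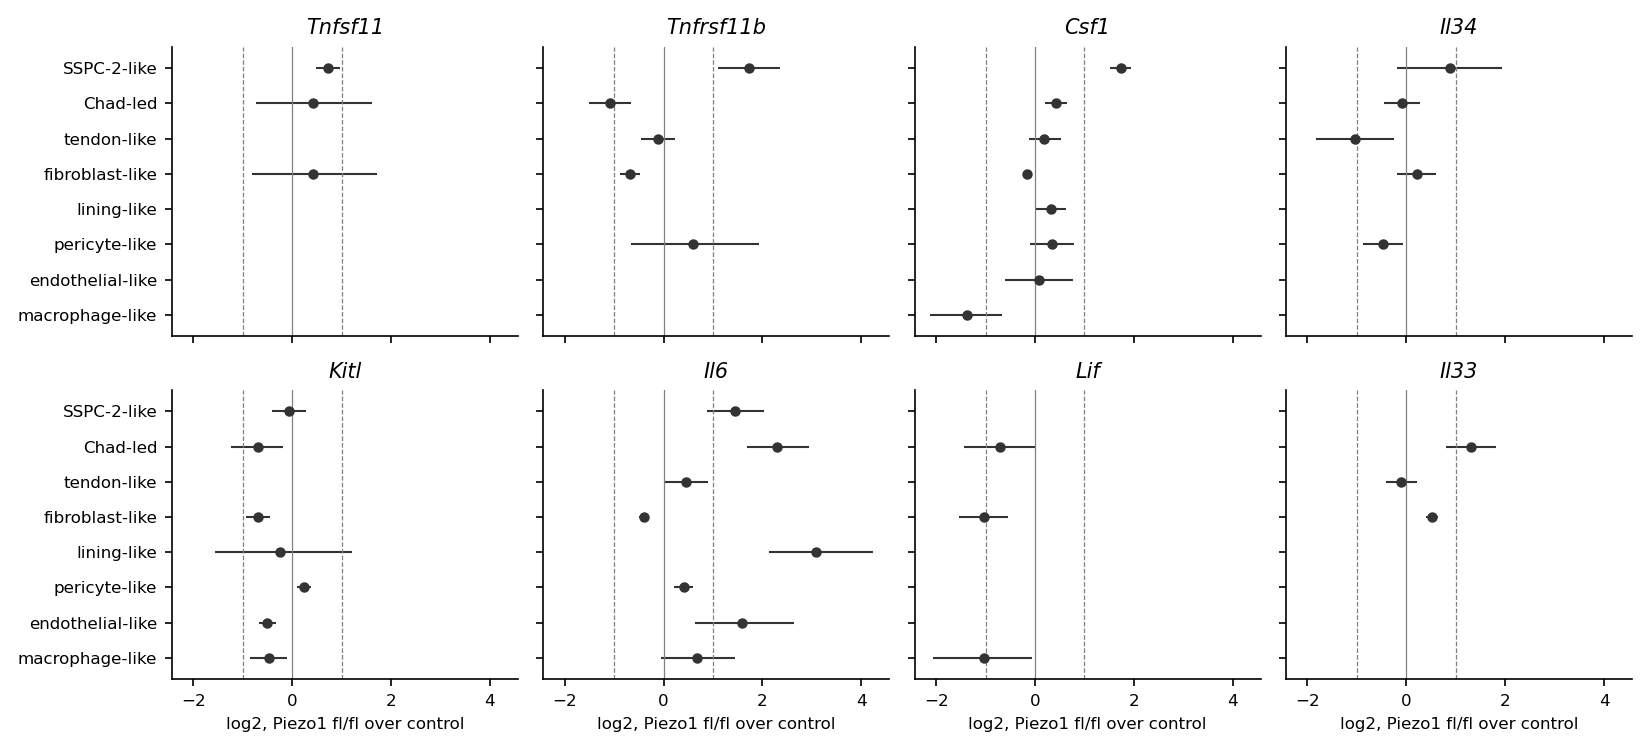
Log2 ratio of the level in the Piezo1 fl/fl library to that in the control library for each gene and class with at least 20 UMIs over both libraries. Bars are exact 95% intervals of counting error. Genotype and library cannot be told apart.

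Lists of related genes were compared over the 8 shared classes as well. Of 67 pairs of class and cytokine response gene (9 genes, among them *Socs3* and *Nfkbia*), 11 were past 2-fold higher and 0 lower in the Piezo1 fl/fl library, whereas of 76089 pairs over all genes 2674 (3.51%) were higher and 3167 (4.16%) lower. Log2 ratios were above 0 in 51 of the 67 and below it in 16. *Nfkbia* had log2 ratios of 1.05 in SSPC-2-like cells, 1.54 in the *Chad*-led cluster and 2.24 in tendon-like cells. *Socs3* went from 534 to 479 CPM in SSPC-2-like, 618 to 466 in fibroblast-like and 598 to 450 in tendon-like cells. It went from 881 to 795 CPM in macrophage-like and 778 to 718 in lining-like cells. Its levels were 514 and 548 CPM in the *Chad*-led cluster, 281 and 333 in endothelial-like and 308 and 417 in pericyte-like cells. Of 88 pairs for the 11 dissociation genes, 6 were higher and 3 lower. Receptors had 5 higher and 7 lower of 59, osteoclast genes 8 and 1 of 45, other IL-6 family genes 3 and 1 of 15, other niche factors 6 and 6 of 51, and hormone and prostaglandin receptors 1 and 7 of 35. *Csf1* and *Il6* in SSPC-2-like cells thus stood beside 2 of 8 cytokine response genes past 2-fold higher in that class (3.27% of all genes), where the median log2 ratio of the list was 0.39. The count was 3 of 9 in the *Chad*-led cluster (2.39% of all genes, list median 0.73) and 4 of 8 in tendon-like cells (5.62%, 1.24). It was 2 of 8 in pericyte-like (1.56%, 0.62), 0 of 8 in endothelial-like (4.18%, 0.36) and 0 of 8 in lining-like cells (9.13%, -0.17). The part of the list in these differences was not tested.

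Since *Csf1* and *Il6* were past 2-fold together in SSPC-2-like cells, their promoters are shown. There *Il6* was under 2-fold without the 5 highest cells of each library, and *Tnfrsf11b* was past 2-fold as well. *Csf1*, *Il6* and both motifs were picked after the data and these sequences had been seen. RefSeq windows from 250 bases before to 50 after the start of transcription (build GRCm38.p6) were available for 6 of the 8 genes, in 7 windows; none was listed for *Tnfrsf11b* and *Il34*. The *Csf1* window lies at chr3:107760420-107760719 on the reverse strand and that of *Il6* at chr5:30012864-30013163 on the forward strand. By the GENCODE vM21 annotation the genes span chr3:107741048-107760469 and chr5:30013114-30019981, so the last 50 bases of each window lie inside the gene and the rest upstream of it. Capitals mark matches to the NF-kappaB motif and, in *Il6*, to the AP-1 motif TGANTCA, both searched on both strands.

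Csf1: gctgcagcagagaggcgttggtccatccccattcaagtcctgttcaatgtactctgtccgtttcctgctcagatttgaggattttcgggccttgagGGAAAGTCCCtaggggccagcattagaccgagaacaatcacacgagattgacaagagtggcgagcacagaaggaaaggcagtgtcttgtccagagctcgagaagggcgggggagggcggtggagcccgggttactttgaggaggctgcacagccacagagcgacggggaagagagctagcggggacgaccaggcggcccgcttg
Il6: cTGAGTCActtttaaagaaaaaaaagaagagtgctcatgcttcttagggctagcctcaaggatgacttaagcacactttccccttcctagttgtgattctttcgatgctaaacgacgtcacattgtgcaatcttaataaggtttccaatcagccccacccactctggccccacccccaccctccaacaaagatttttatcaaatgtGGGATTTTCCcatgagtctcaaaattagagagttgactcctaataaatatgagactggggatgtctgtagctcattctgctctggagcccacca

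The NF-kappaB match GGAAAGTCCC begins 154 bases before the *Csf1* start, and GGGATTTTCC 44 bases before that of *Il6*. A match was found in 2 of the 6 genes, against 1480 of 32851 promoters (4.51%). AP-1 matched in *Il6*, 249 bases before the start, and in *Lif*, as in 2565 of 32851 promoters (7.81%). A match describes letters and does not show a site in use. In the same annotation, 7 of the 8 genes overlapped no other gene. *Il34* overlapped the antisense genes *Gm15894* (3 and 9 UMIs in the control and Piezo1 fl/fl libraries) and *Gm15895* (9 and 13 UMIs).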

How the data were processed

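Periosteal cells of 2 mouse libraries, 1 per genotype, were measured with BD Rhapsody. The deposited values are UMI count matrices made by the authors, and the submitters' processing notes name fastp, UMI-tools, STAR and Seurat 4.0.3. The genome build was not given in the sources used here. Barcodes passed with 1000 to 5000 detected genes and a mitochondrial share below 25%, and doublets called by Scrublet (scanpy 1.11.5) were removed: 37 of 4455 in the control and 57 of 5141 in the Piezo1 fl/fl library. Each library was clustered alone in Seurat 5.3.0 under R 4.3.3 (2000 variable features, 20 principal components, resolution 0.4) without the members and listed genes. The rule that named clusters from marker lists was set after the clusters had been seen. Counts were summed per class over the class total in Python 3.11.15 (pandas 2.3.3, NumPy 2.4.6), with exact Poisson, conditional and Clopper-Pearson 95% intervals from SciPy 1.17.1, which were tested on simulated data. Figures were drawn in matplotlib 3.10.9. Named genes were every member, listed genes with at least 20 UMIs, and, from the 3 genes most alike each member with at least 50 UMIs, 2 or 3. Members and lists were chosen with earlier results of these data known. Filters, doublets, resolution, features, class assignment, thinning and weighting were varied.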

Additional observations from a re-analysis of the deposited data

How the results depend on the processing

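Values were recomputed under 17 settings, 5 of them chosen after seeing the data. Of 842 single values, 744 stayed within the interval of the reported value. Settings that pooled a cluster left the other classes as they were, so most values there could not move. Of ratios between the libraries, 42 of 42 stayed with mitochondrial and ribosomal genes left out of the total. With each cell assigned by its markers 23 of 32 did, and at resolution 0.8, 22 of 34. Over all 842, the sign differed in 55, of which 17 had a reported interval without 0. These were 7 values past 2-fold as reported, given below, and 10 under it. Of the 12 pairs past 2-fold between the libraries, 4 stayed past it under every setting that gave a value: *Il6* in the *Chad*-led cluster and in lining-like cells, *Il33* in the *Chad*-led cluster and *Csf1* in SSPC-2-like cells. Values were given by 12 settings for each *Chad*-led pair, 14 for the lining-like pair and 16 for the SSPC-2-like pair. For *Il6* in lining-like cells, however, leaving out the 5 highest cells gave no ratio, and thinning to 2500 UMIs lowered it from 3.09 to 1.24. The count of control genes at least 2-fold over the next class, 2 as reported, was 4 with a wider range of genes per cell, 4 with doublets kept, 1 at resolution 0.2, 0 at resolution 0.8, 1 with each cell assigned by markers, 1 without chondrocyte-marked cells and 1 with mature osteoblast-like cells pooled. Pairs past 2-fold, 12 of 42, were 7 of 43 with doublets kept, 20 of 68 with cells assigned by markers, where 3 of the 8 reported pairs with a value stayed past it, and 7 of 42 as a mean over cells. *Csf1* in macrophage-like cells reversed to a log2 ratio of 0.14 with a wider range of genes per cell. *Tnfrsf11b* in SSPC-2-like cells reversed to -1.22 at resolution 0.2, -0.53 with cells assigned by markers and -0.066 with mature osteoblast-like cells pooled. Control *Tnfrsf11b* in mature osteoblast-like cells over the next class reversed to -0.53 with all features and -0.93 with cells assigned by markers, and Piezo1 fl/fl *Il6* in pericyte-like cells to -0.265 with cells assigned by markers. The 10 under 2-fold were *Csf1* in fibroblast-like cells over the next class (control), -2.46 with a wider range of genes per cell, Piezo1 fl/fl *Kitl* in endothelial-like cells over the next class, -0.02 with mitochondrial UMIs under 10%, and, between the libraries, *Tnfrsf11b* in fibroblast-like cells (4 settings, up to 0.57), *Kitl* in fibroblast-like cells (2 settings, 0.18) and *Il6* in tendon-like cells (2 settings, to -0.18). Piezo1 fl/fl *Csf1* in fibroblast-like cells over the next class, 0.0025 as reported, was -1.29 with a wider range of genes per cell. The cause was not tested. By markers, 329 control and 429 Piezo1 fl/fl cells scored within 10% of the next class. Classes that a setting did not form gave no value. No paired analysis was possible because each genotype had 1 library. Intervals cover counting error alone and are too narrow where few cells hold the UMIs. Below 20 UMIs over both libraries no ratio was taken.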
